A study of Mus musculus with 22 samples.

Results

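A group of 10 transcription factor genes that record position in the body was followed through stretched and shortened mouse connective tissue: Zic1, Zic4, Pax1, Tbx3, Tbx18, Hoxa3, Hoxa9, Hoxb6, En1 and Msx1. They are 10 of the 12393 genes with a probe of their own on the array. The genes were selected on low p values in the in vivo comparison of stretched with shortened tissue, so their in vivo differences are given here as a description, with no test. The ex vivo samples took no part in that choice, and the genes were tested there. Where a gene had several probes, the one with the highest mean signal in the 22 samples stands for it. This applied to 5 of the 10 genes, and the other 5 had 1 probe each.

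The samples were loose subcutaneous connective tissue of male C57BL/6 mice, taken from the trunk, and total RNA was measured on arrays as biotin-labelled cRNA. There were 7 stretched and 7 shortened pieces held in vivo, from 7 animals, and 4 stretched and 4 shortened pieces held ex vivo, from 4 animals. The pieces of an animal were allotted to stretch or shortening at random per the series design, so differences were taken within animals. The labels list no altered genotype and no drug. The labels used here give neither the length of the stretch nor the level or side of the trunk from which each piece came.

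Position genes of these families act in the embryo, where they tell cells whether they lie toward the head or the tail, the back or the belly, or in a limb. HOX genes lie in clusters, and their order along the chromosome follows the order of the body levels at which they are active. Fibroblasts of adult skin keep part of this code, so that fibroblasts of different body regions express different HOX, T-box and other patterning genes.

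Values are log2 signals, on which a difference of 1 is a doubling. Sample medians were 6.85 to 6.90 ex vivo and 7.28 to 7.41 in vivo, so the settings looked normalized separately and no test was made between them. Fibroblast markers were high in every sample: the mean log2 signal of 8 of 8 listed fibroblast genes was 11.2 to 11.8 ex vivo and 12.5 to 13.0 in vivo. Skeletal muscle markers ranged more widely, from 5.15 to 12.3 in stretched and from 5.34 to 6.59 in shortened pieces ex vivo, and from 4.95 to 13.1 in stretched and from 4.82 to 12.4 in shortened pieces in vivo. Precision is limited by the small number of arrays.

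In the mouse genome (build GRCm38.p6, RefSeq) Zic1 and Zic4 are neighbours on chromosome 9, at 91358058 to 91365768 and 91365631 to 91389351. They are read in opposite directions, their spans overlap by 138 bases, and the start sites used here lie 3204 bases apart. Hoxa3 and Hoxa9 share the HOXA cluster on chromosome 6, at 52169059 to 52213067 and 52223097 to 52227370. Hoxb6 lies in the HOXB cluster on chromosome 11, Tbx18 on chromosome 9, Msx1 and Tbx3 on chromosome 5, Pax1 on chromosome 2 and En1 on chromosome 1.

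RefSeq start-site sequences were at hand for 8 of the 10 genes. The 250 bases before the start site are shown for the neighbours Zic1 and Zic4, whose differences were most alike among the 10 genes set against Zic1, and for Hoxa9, which varied most between ex vivo animals. Capitals mark the CCAAT box, searched on both strands as CCAAT or ATTGG. The Zic1 window is chr9:91365769-91366018 on the minus strand, the Zic4 window chr9:91368722-91368971 on the plus strand, and the Hoxa9 window chr6:52227371-52227620 on the minus strand.
Zic1: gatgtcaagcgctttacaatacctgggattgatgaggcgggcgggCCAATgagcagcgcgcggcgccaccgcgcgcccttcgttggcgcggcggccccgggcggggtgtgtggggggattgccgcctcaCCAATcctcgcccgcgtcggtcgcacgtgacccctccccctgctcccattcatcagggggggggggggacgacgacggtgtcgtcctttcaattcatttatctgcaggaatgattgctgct
Zic4: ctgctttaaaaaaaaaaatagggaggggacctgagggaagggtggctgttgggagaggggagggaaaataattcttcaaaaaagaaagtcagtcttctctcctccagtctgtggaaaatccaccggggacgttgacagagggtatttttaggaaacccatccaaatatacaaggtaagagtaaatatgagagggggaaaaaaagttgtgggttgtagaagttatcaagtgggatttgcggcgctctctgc
Hoxa9: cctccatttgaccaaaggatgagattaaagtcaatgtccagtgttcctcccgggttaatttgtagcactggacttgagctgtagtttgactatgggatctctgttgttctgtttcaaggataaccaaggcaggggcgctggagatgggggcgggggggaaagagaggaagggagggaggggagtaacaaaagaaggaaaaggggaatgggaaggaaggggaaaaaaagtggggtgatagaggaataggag
The Zic1 window held 2 CCAAT boxes and 27 CG dinucleotides, the Zic4 window 0 and 4, and the Hoxa9 window 0 and 3, beside a median of 6 CG dinucleotides over all 32544 windows of this length. A CCAAT box was present in 33.8% of all windows. The homeodomain core TAATTA (its own reverse complement) stood in 4.84% of all windows, and the T-box motif TCACACC (or GGTGTGA) in 3.33%. Neither was found in the windows of the 8 genes. These matches describe the letters and do not mark binding sites.

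Zic1 had the largest in vivo difference of the 10 genes. It encodes a zinc finger factor of the dorsal neural tube and dorsal somite, and in the mouse it also marks brown fat of the interscapular region. Stretched pieces in vivo had log2 signals of 5.74 at the lowest, 6.45 at the median and 7.78 at the highest, and shortened pieces 7.63, 8.57 and 9.48. Every animal had less Zic1 signal in its stretched piece, although the ranges of the groups overlapped. Within animals 1 to 7, stretched minus shortened was -1.69, -2.36, -2.94, -0.83, -3.12, -1.85 and -0.90, with a mean of -1.95 ± 0.91 (SD, n = 7). The mean of 5 of 5 measured brown fat markers differed by -0.10 to 1.54 in these animals, and its part was not tested. In bulk tissue, fewer cells of a type and less RNA per cell cannot be told apart.

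Ex vivo, Zic1 lay the other way on average. Stretched pieces had log2 signals of 7.95, 8.42, 8.06 and 8.30 in animals 1 to 4, against 8.29, 5.40, 7.37 and 6.98 in shortened pieces. The stretched pieces were all alike, and the shortened pieces were spread out. Pair differences were -0.34, 3.02, 0.68 and 1.33, with a mean of 1.17 ± 1.41 (SD, n = 4). The limma fit, whose SE of 0.48 also draws on the variance of other probes, gave an unadjusted p of 0.0470 and an adjusted p of 0.446. Animal 2 carried much of it: without that animal the mean difference was 0.56. Of the 5 brown fat markers, 3 were higher and 2 lower in stretched pieces on average over the 4 ex vivo animals. Their mean differed by -1.50 in animal 2 and by 0.27 to 0.56 in the other ex vivo animals. That mean lay between 4.54 and 5.16 in stretched and between 4.26 and 6.05 in shortened ex vivo pieces, and its part in the Zic1 value was not tested.

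Zic4, the neighbouring ZIC gene, had low signals in all groups. In vivo, stretched pieces lay at 4.01, 4.29 and 4.46 (lowest, median, highest) and shortened pieces at 4.25, 4.55 and 4.78. It was lower in the stretched piece of 7 of 7 animals, with differences from -0.66 to -0.03, a mean of -0.28 ± 0.24 (SD, n = 7) and overlapping groups. A second Zic4 probe gave the same mean of -0.28 ± 0.13 (SD, n = 7), also lower in 7 of 7, and 0.012 on average ex vivo. In ex vivo tissue the signals were 4.30, 4.80, 4.40 and 4.24 in stretched pieces and 4.33, 4.08, 4.44 and 4.23 in shortened pieces of animals 1 to 4. Animal 2, the one with the large Zic1 difference, had a Zic4 difference of 0.72, and the other 3 animals lay between -0.04 and 0.02. The mean was 0.17 (adjusted p = 0.712, limma), and -0.016 without animal 2.

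Across the 11 pair differences, Zic1 correlated with Zic4 at r = 0.80, with Tbx18 at 0.77 and with Hoxb6 at -0.76. These are descriptions over pairs of both settings, and the in vivo direction of each gene was part of the choice. Over all genes, the patterns most like Zic1 were those of Lpp (r = 0.97), a focal adhesion protein, Macroh2a2 (0.94), a histone variant, and Slc4a10 (0.94), a bicarbonate transporter of neurons and choroid plexus. Lpp differed by only -0.058 ± 0.063 in vivo and 0.20 ± 0.13 ex vivo (SD), while Slc4a10 differed by -1.44 ± 0.73 in vivo and -0.13 ± 0.65 ex vivo. Slc4a10 stood in a marker list of meninges and neurons, of which 5 of 5 genes were measured. The other 4 genes of that list had in vivo mean differences between -0.058 and 0.23, and the mean log2 signal of the list lay between 5.00 and 5.33 in stretched and between 5.29 and 5.58 in shortened pieces. Its part in the Zic1 difference was not tested.

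**Figure D1:**
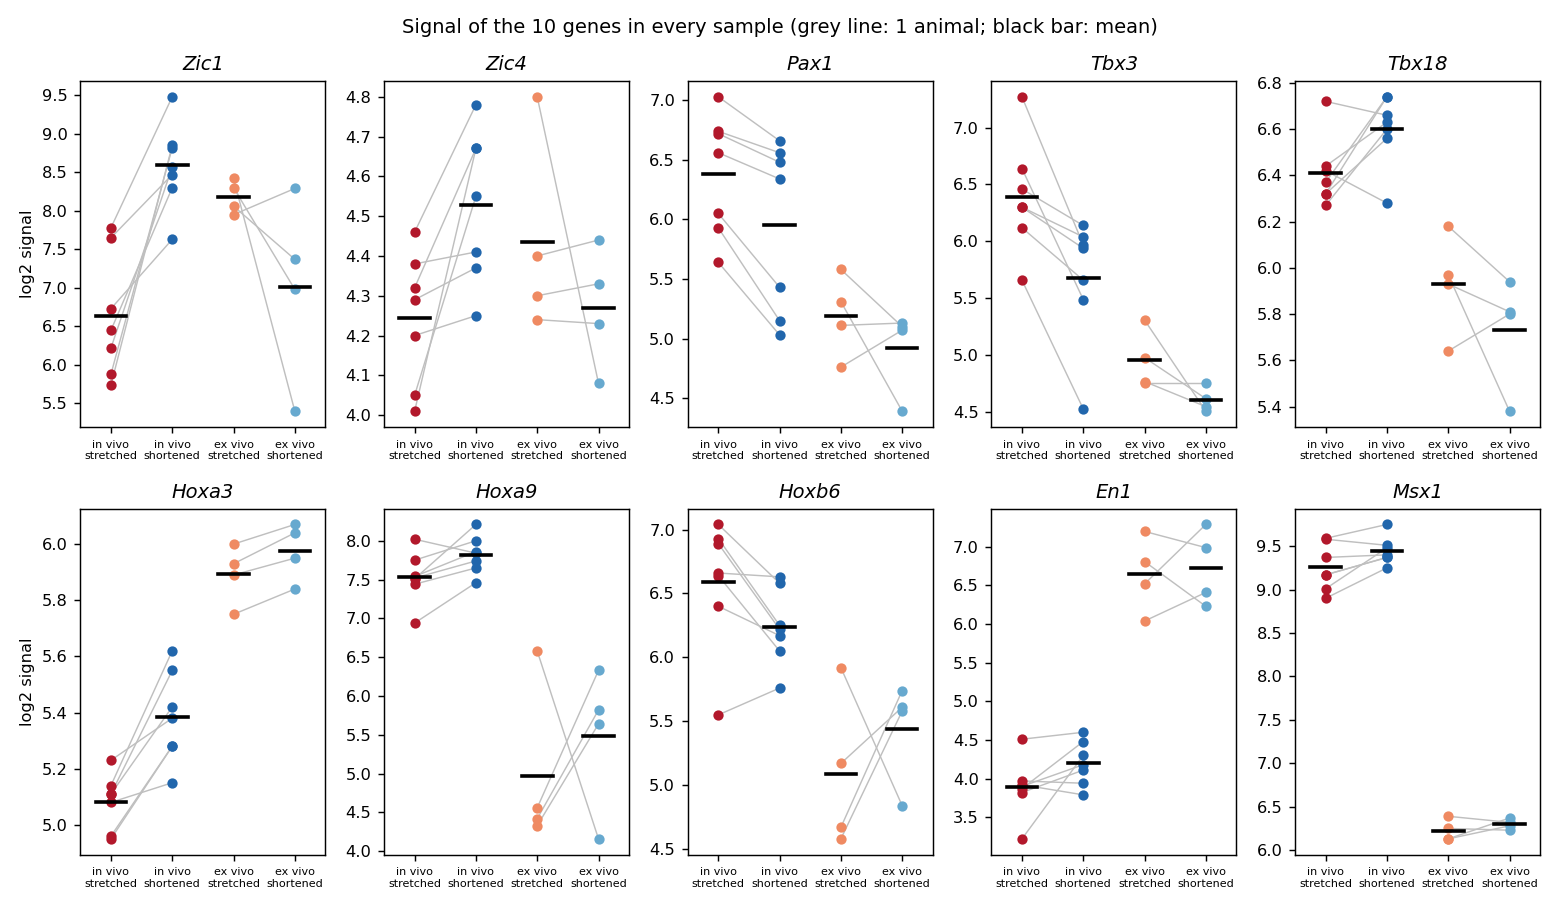
Each panel shows 1 gene, with log2 signal on the vertical axis and the 4 groups along the horizontal axis, stretched left of shortened in each setting. Points are samples, grey lines join the pieces of an animal and black bars are group means. Zic1 lines run upward to the shortened pieces in all 7 in vivo animals, En1 lies at 6.04 to 7.29 ex vivo against 3.22 to 4.60 in vivo, and the Hoxa9 line of ex vivo animal 1 crosses those of the other 3 animals.

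Pax1 encodes a paired-box factor of the sclerotome, the part of the somite that forms vertebrae, and of the pectoral girdle. Its in vivo signals were 5.64, 5.93, 6.05, 7.03, 6.72, 6.74 and 6.56 in the stretched pieces of animals 1 to 7, against 5.03, 5.15, 5.43, 6.66, 6.48, 6.56 and 6.34 in the shortened pieces. Both pieces of animals 1 to 3 lay below both pieces of animals 4 to 7, and within each animal the stretched piece was higher. The mean difference was 0.43 ± 0.24 (SD, n = 7). Gapdh control probes separated the same animals. The signal of 3' over 5' Gapdh probes differed by 0.111 to 0.272 in animals 1 to 3 and by 0.866 to 3.61 in animals 4 to 7. The Pax1 difference was 0.67 ± 0.10 (SD, n = 3) in the first set and 0.25 ± 0.081 (SD, n = 4) in the second. The cause of this split and its part in the Pax1 levels were not tested.

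Ex vivo, Pax1 had 4.76, 5.11, 5.58 and 5.31 in stretched pieces, against 5.07, 5.13, 5.10 and 4.39 in shortened pieces of animals 1 to 4. Pair differences of -0.31, -0.02, 0.48 and 0.92 straddled 0, and the mean of 0.27 had an adjusted p of 0.668 (limma). The animals with higher Pax1 in the stretched piece, 3 and 4, were those whose stretched piece held more skeletal muscle RNA, by 5.63 and 5.71 in the mean of 8 of 8 measured muscle markers. Without these animals the mean Pax1 difference was -0.16, and with the muscle mean as a covariate it was -0.14. In vivo it was 0.58 with the covariate and 0.52 without animals 5 and 6. The part of muscle in the Pax1 values was not tested.

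Tbx3 and Tbx18 encode T-box factors. Tbx3 acts in the limb bud and in the start of the mammary glands along the flank, and Tbx18 in the front part of each somite. Tbx3 had in vivo log2 signals of 5.66, 6.30 and 7.27 (lowest, median, highest) in stretched pieces, against 4.53, 5.94 and 6.14 in shortened pieces. It was higher in the stretched piece of 7 of 7 animals by 0.25 to 1.31, with a mean of 0.71 ± 0.46 (SD, n = 7) and overlapping groups. Animals 1, 3 and 5 differed by over 1, and the other 4 by 0.46 or less. The other Tbx3 probe, with signals of 4.74 to 5.17 in vivo, differed by only 0.069 on average.

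The ex vivo Tbx3 signals were 4.76, 4.77, 4.98 and 5.31 in stretched pieces, against 4.76, 4.55, 4.62 and 4.51 in shortened pieces of animals 1 to 4. The nearest stretched and shortened pieces both stood at 4.76, and they came from the same animal. All 4 pairs were higher in the stretched piece, by 0.00 to 0.80, a pattern that 12% of all genes showed. The mean was 0.35 ± 0.34 (SD, n = 4), with a limma SE of 0.14, an unadjusted p of 0.0469 and an adjusted p of 0.446 (limma). The other Tbx3 probe differed by -0.15 on average and was lower in all 4 stretched pieces. Animals 3 and 4, whose pieces differed most in muscle RNA, also had the larger Tbx3 differences, and without them the mean was 0.11. The patterns most like Tbx3 over 11 pairs were Grik1 (r = 0.88), a glutamate receptor, Uts2r (0.87), the urotensin receptor, and Ube2c (0.85), a ubiquitin-conjugating enzyme of mitosis.

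Tbx18 had in vivo log2 signals of 6.27, 6.37 and 6.72 (lowest, median, highest) in stretched pieces, against 6.28, 6.63 and 6.74 in shortened pieces. The stretched piece was lower in 5 of 7 animals, with a mean of -0.19 ± 0.22 (SD, n = 7). Ex vivo it had 6.18, 5.97, 5.93 and 5.64 in stretched pieces, against 5.94, 5.38, 5.81 and 5.80 in shortened pieces. There the stretched piece was higher in 3 of 4 animals, with a mean of 0.20 (adjusted p = 0.639, limma), which is within the spread between pairs of 0.31 (SD, n = 4), and 0.069 without animal 2.

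**Figure D2:**
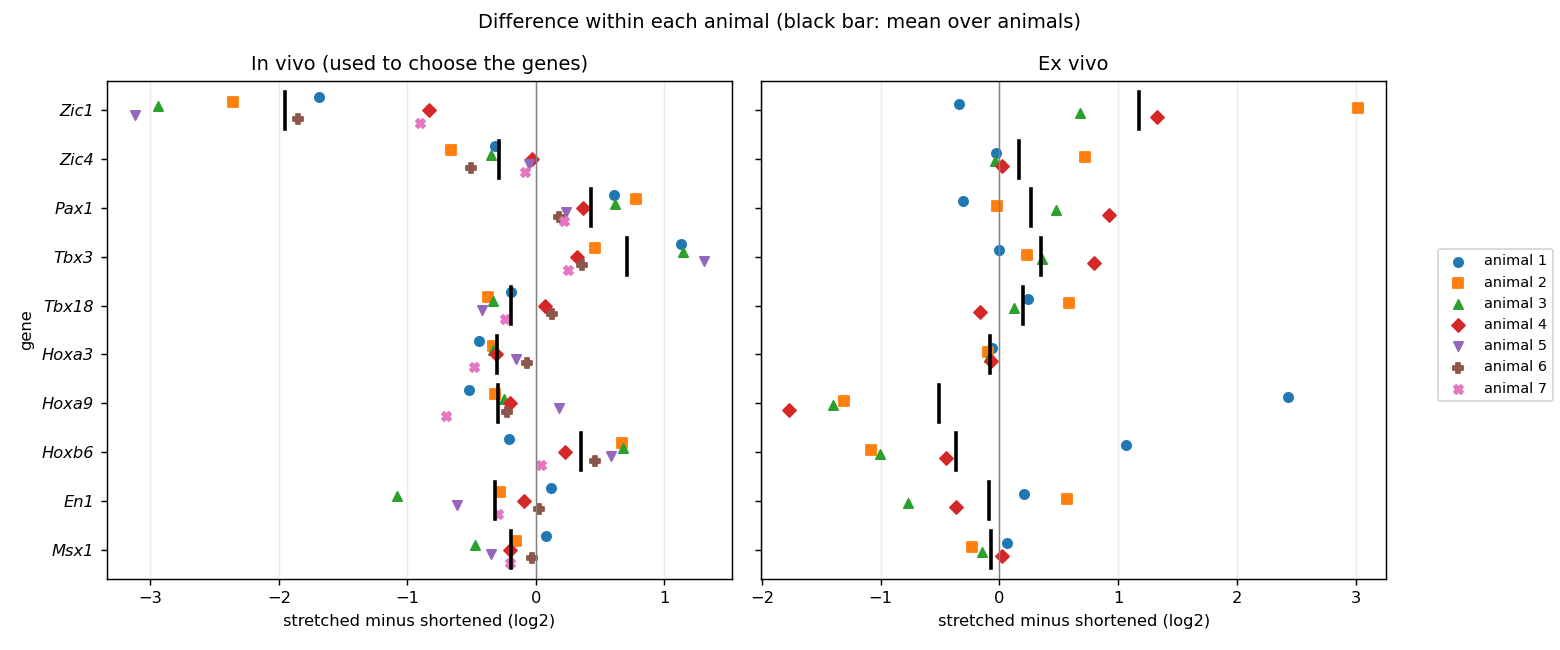
Stretched minus shortened log2 signal (horizontal axis) is shown for each gene (vertical axis), in vivo on the left and ex vivo on the right. Symbols stand for animals and black bars for the mean over animals. In vivo Zic1 runs from -3.12 to -0.83 and Tbx3 from 0.25 to 1.31, while ex vivo Zic1 runs from -0.34 to 3.02 and Hoxa9 from -1.77 to 2.43.

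Hoxa3, Hoxa9 and Hoxb6 are HOX genes of different body levels: Hoxa3 acts in the throat and neck, Hoxb6 in the upper trunk and Hoxa9 further toward the tail. Hoxa3 had in vivo signals of 4.95, 5.11 and 5.23 (lowest, median, highest) in stretched pieces, against 5.15, 5.38 and 5.62 in shortened pieces, and was lower in 7 of 7 animals, with differences from -0.48 to -0.07. The mean was -0.30 ± 0.15 (SD, n = 7), and the other Hoxa3 probe gave 0.0098. Ex vivo it had 5.89, 5.93, 5.75 and 6.00 in stretched pieces and 5.95, 6.04, 5.84 and 6.07 in shortened pieces. The differences of -0.06, -0.10, -0.09 and -0.07 were small and even, with a mean of -0.082 and an adjusted p of 0.786 (limma), and the other probe gave 0.021. Of all genes, 8.89% were lower in all 4 ex vivo pairs.

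Hoxa9 in vivo had log2 signals of 6.94, 7.52 and 8.02 (lowest, median, highest) in stretched pieces, against 7.46, 7.84 and 8.21 in shortened pieces. It was lower in 6 of 7 stretched pieces, with a mean difference of -0.29 ± 0.28 (SD, n = 7). The other Hoxa9 probe was higher in 4 of 7, with a mean of -0.079 ± 0.31 (SD, n = 7). In ex vivo tissue the 4 animals split. Stretched pieces had 6.58, 4.33, 4.42 and 4.56, against 4.16, 5.64, 5.82 and 6.33 in shortened pieces. Animal 1 was higher in its stretched piece by 2.43, and animals 2 to 4 were lower, with differences of -1.31, -1.40 and -1.77. The mean of -0.51 ± 1.97 (SD, n = 4; adjusted p = 0.811, limma) lay between these and matched no animal. Without animal 1 the mean was -1.50 (adjusted p = 0.179). That other probe showed little of this, with ex vivo differences of 0.01, -0.13, -0.14 and -0.30.

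Hoxb6 in vivo had log2 signals of 5.55, 6.66 and 7.04 (lowest, median, highest) in stretched pieces, against 5.76, 6.22 and 6.63 in shortened pieces. The stretched piece was higher in 6 of 7 animals, by 0.35 ± 0.34 on average (SD, n = 7), and by 0.19 with the muscle mean as a covariate. Ex vivo it repeated the split of Hoxa9, with 5.92, 4.67, 4.58 and 5.17 in stretched pieces, against 4.84, 5.74, 5.58 and 5.61 in shortened pieces. Animal 1 differed by 1.07 and animals 2 to 4 by -1.08, -1.01 and -0.45. The mean was -0.36 ± 1.00 (SD, n = 4; adjusted p = 0.738, limma), and -0.84 without animal 1 (adjusted p = 0.199).

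The same split between ex vivo animal 1 and animals 2 to 4 was counted over the HOX genes. Of 39 HOX genes, 31 were measured, 9 in the A cluster, 9 in B, 6 in C and 7 in D. In 12 of the 31 (38.7%) the stretched piece was higher in animal 1 and lower in animals 2 to 4, against 12.3% of all genes. This count, which includes Hoxa9 and Hoxb6 themselves, was made after the values were seen and was not tested. It took in 3 of 9 genes of the A cluster, 6 of 9 of B, 2 of 6 of C and 1 of 7 of D. The 12 genes were Hoxa5, Hoxa9 and Hoxa10, Hoxb2, Hoxb3, Hoxb4, Hoxb5, Hoxb6 and Hoxb9, Hoxc6 and Hoxc9, and Hoxd13. None of the 31 had the reverse pattern, which 6.27% of all genes showed. Hoxa10, next to Hoxa9 in its cluster, had the next widest split, with differences of 1.40, -0.42, -0.97 and -1.11. Its signals were low, with ex vivo means of 3.31 in stretched and 3.58 in shortened pieces.

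Counted by animal, 26 of 31 HOX genes were higher in the stretched piece of ex vivo animal 1, with a median difference of 0.24. The numbers were 14, 9 and 6 of 31 in animals 2, 3 and 4, with medians of -0.031, -0.14 and -0.15. Over all genes the shares that were higher were 63.0%, 55.5%, 47.0% and 41.6% in animals 1 to 4. The order of the animals was the same over all genes. In animal 2 the HOX genes were near even, with 14 higher and 17 lower, beside 55.5% of all genes higher. These counts include Hoxa9 and Hoxb6. The stretched piece of animal 1 stood apart in the Gapdh control probes. Its 3' over 5' difference was 0.912, against 0.0497 to 0.187 in the other 7 ex vivo samples. In the same animal, white fat markers (3 of 5 measured) differed by 0.83, endothelial markers (4 of 4) by 0.56, muscle markers (8 of 8) by -0.62 and macrophage markers (4 of 4) by -0.61. The part of these in the HOX differences was not tested.

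**Figure D3:**
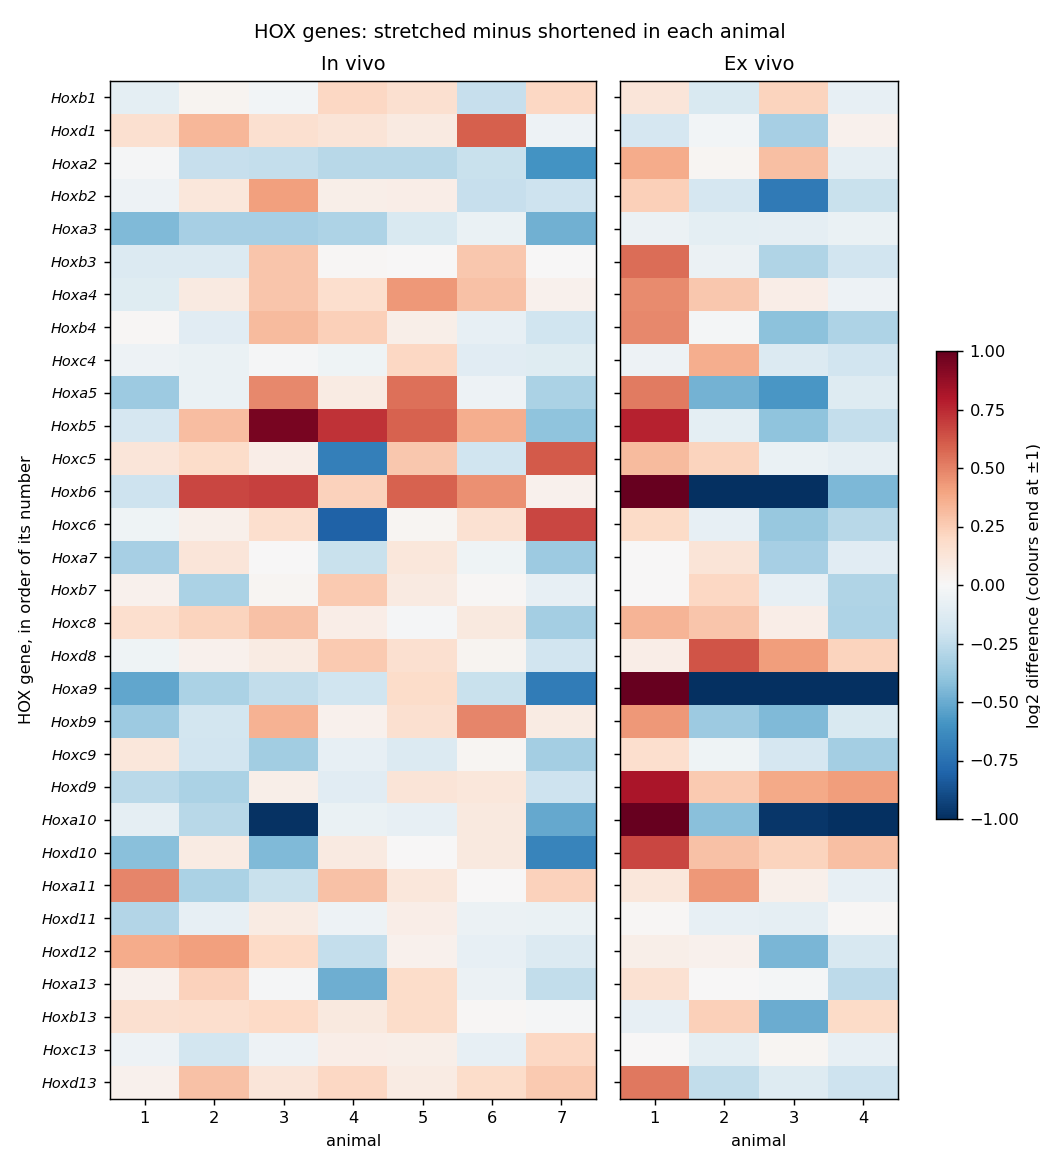
Each row is 1 of the 31 measured HOX genes in order of number, each column an animal, with in vivo animals on the left and ex vivo animals on the right. Colour gives stretched minus shortened log2 signal, red for higher and blue for lower, and ends at 1 either way. The first ex vivo column is mostly red (26 of 31 genes higher) and the fourth mostly blue (6 of 31 higher), while Hoxd8, Hoxd9 and Hoxd10 are red in all 4.

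Hoxd8, Hoxd9 and Hoxd10, neighbours in the HOXD cluster, did not share the split. Hoxd9 was higher in 4 of 4 ex vivo stretched pieces, by 0.82, 0.26, 0.38 and 0.42 (mean 0.47, adjusted p = 0.363, limma). Hoxd10 differed by 0.67, 0.29, 0.22 and 0.30 (mean 0.37, adjusted p = 0.366, limma) and Hoxd8 by 0.07, 0.63, 0.42 and 0.22 (mean 0.34, adjusted p = 0.405, limma). In vivo the means of Hoxd9, Hoxd10 and Hoxd8 were -0.087, -0.18 and 0.049. Those 3 were the only ones of the 28 other measured HOX genes with an unadjusted p under 0.05 ex vivo, against 11.1% of all probes (2508), and 0 passed after adjustment.

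Among the same 28 HOX genes in vivo, 18 were higher and 10 lower on average, with a median of 0.034. An unadjusted p under 0.05 was found for 6 of the 28, 4 higher and 2 lower, against 19.3% of all probes (4373), and 0 passed after adjustment. The smallest p values belonged to Hoxa2, Hoxd13 and Hoxd1. Hoxa2, a gene of the hindbrain and second pharyngeal arch, was lower in 7 of 7 animals, with a mean difference of -0.27 (adjusted p = 0.172, limma). Hoxd13, a gene of digits and genital tubercle, was higher in 7 of 7 by 0.17 (adjusted p = 0.180, limma). Hoxd1 was higher in 6 of 7 by 0.20 (adjusted p = 0.188, limma). Its signals were low, with means of 2.89 in stretched and 2.69 in shortened pieces. Of all genes, 1.53% were higher and 4.28% lower in all 7 pairs.

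En1 encodes a homeodomain factor of the midbrain-hindbrain border and the ventral limb, and in mouse it marks the lineage of many fibroblasts of dorsal trunk skin. In vivo its log2 signals were low, at 3.22, 3.90 and 4.51 (lowest, median, highest) in stretched pieces, against 3.79, 4.18 and 4.60 in shortened pieces. The stretched piece was lower in 5 of 7 animals. Differences were 0.12, -0.28, -1.08, -0.09, -0.61, 0.03 and -0.29 in animals 1 to 7, with a mean of -0.31 ± 0.42 (SD, n = 7), and of -0.19 without animal 3. Ex vivo it had 7.20, 6.81, 6.52 and 6.04 in stretched pieces, against 6.99, 6.23, 7.29 and 6.41 in shortened pieces. Differences of 0.21, 0.57, -0.77 and -0.37 went both ways, with a mean of -0.087 (adjusted p = 0.917, limma).

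Msx1, a homeodomain gene of limb bud and face that responds to BMP signals, had small differences. In vivo it had log2 signals of 8.90, 9.17 and 9.59 (lowest, median, highest) in stretched pieces, against 9.25, 9.40 and 9.75 in shortened pieces. It was lower in 6 of 7 stretched pieces, with a mean of -0.19 ± 0.18 (SD, n = 7). Ex vivo it had 6.39, 6.13, 6.13 and 6.25 in stretched pieces and 6.32, 6.37, 6.28 and 6.23 in shortened pieces, with a mean difference of -0.077 (adjusted p = 0.823, limma).

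Levels of some of the 10 genes were far apart between the settings, which differ in animals and in normalization as well. After each sample was centred on its median, En1 and Hoxa3 were higher in every ex vivo sample than in every in vivo sample, as were 19.7% of all genes. Their centred means were higher ex vivo by 3.09 and 1.16. Msx1 was lower in every ex vivo sample, with a centred mean difference of -2.64, as were 18.8% of all genes. As deposited, Msx1 lay at 6.13 to 6.39 ex vivo and at 8.90 to 9.75 in vivo, and Hoxa3 at 5.75 to 6.07 ex vivo and 4.95 to 5.62 in vivo. After centring, the other 7 genes overlapped between settings, Hoxa9 among them only through the stretched piece of ex vivo animal 1. Deposited Hoxa9 signals were 4.16 to 6.58 ex vivo and 6.94 to 8.21 in vivo. The other Hoxa9 probe lay at 5.66 to 6.22 ex vivo and 6.97 to 7.76 in vivo. Tbx18 lay at 5.38 to 6.18 ex vivo and 6.27 to 6.74 in vivo. Whole-sample medians were lower ex vivo as well, so deposited ranges alone do not set a gene apart. The share of all genes without overlap as deposited was not counted. The other probe of Msx1 lay at 5.37 to 5.74 ex vivo and 7.32 to 8.08 in vivo, the same order, whereas that of Hoxa3 overlapped, at 4.34 to 5.17 ex vivo and 4.60 to 5.24 in vivo.

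Read across the 10 genes, in vivo differences were on average higher in 3 (Pax1, Tbx3 and Hoxb6) and lower in 7, and 5 of the 10 lay one way in all 7 pairs. The choice of the genes fixed this. Ex vivo, 5 were higher and 5 lower on average, with a median of 0.046 against 0.0086 over all genes. The mean differences of Zic1, Zic4, Tbx18 and Hoxb6 had opposite signs in the settings. None of the 10 passed an adjusted p of 0.05 ex vivo, and 2 of 10 had an unadjusted p under 0.05, beside 11.1% of all probes. By the same limma test 0% of all probes passed after adjustment in either setting, so the low count is that of the whole array. With 4 pairs, an exact two-sided sign-flip test cannot give a p below 0.125.

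HOX proteins bind DNA with PBX, MEIS and PKNOX cofactors, of which 8 of 9 were measured. In vivo, 3 were higher and 5 lower, and 3 of 8 had an unadjusted p under 0.05, all of them lower, beside 19.3% of all probes. Pbx3 differed by -0.22 and was lower in 7 of 7 animals (adjusted p = 0.172, limma), Meis2 by -0.19 (0.194) and Pknox1 by -0.22 (0.214). Ex vivo, 4 were higher and 4 lower and 0 of 8 had an unadjusted p under 0.05, beside 11.1% of all probes. There the smallest p values were those of Meis2 (-0.36, adjusted p = 0.466), Pbx3 (0.16, 0.645) and Pbx2 (0.15, 0.719), by limma. Ex vivo, Meis2 was -0.059 with the muscle mean as a covariate and -0.040 without animals 3 and 4. In vivo it was -0.056 with the covariate and -0.14 without animals 5 and 6. The part of muscle in the Meis2 values was not tested.

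Of 80 other patterning factors 69 were measured. In vivo 29 were higher and 40 lower, and 5 of 69 had an unadjusted p under 0.05, a smaller share than the 19.3% of all probes. The genes named here are the 3 with the smallest p values in each setting. Prrx1, a homeodomain gene of limb and trunk mesenchyme, was lower in 7 of 7 stretched pieces, with a mean difference of -0.23 (adjusted p = 0.172, limma). Tcf15, a factor of the epithelial somite, differed by 0.56 and Foxd1 by -0.36 (adjusted p = 0.172 and 0.186). Ex vivo 23 were higher and 46 lower, with a median of -0.055, and 5 of 69 had an unadjusted p under 0.05, all lower, again a smaller share than the 11.1% of all probes. Lhx2, a limb bud and hair follicle gene, was lower in 4 of 4 stretched pieces, with a mean difference of -0.60 (adjusted p = 0.385, limma). Tbx6, a gene of the paraxial mesoderm, was lower in 3 of 4 (-0.65, adjusted p = 0.386, limma), and Shox2, a gene of the limb near the trunk, in 4 of 4 (-0.33, adjusted p = 0.389, limma). Lhx2 was -0.26 with the muscle mean as a covariate and -0.22 without animals 3 and 4. Keratinocyte and hair follicle markers, 8 of 8 measured, had pair differences of -0.14 to 0.03 ex vivo, and their part in the Lhx2 value was not tested.

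Muscle marker signal was higher in the stretched piece of all but 1 animal, and its part in the differences above was not tested. The muscle marker mean differed by 0.11, 1.52, 1.56, 0.14, 6.15, 5.02 and 2.08 in in vivo animals 1 to 7 and by -0.62, 0.18, 5.63 and 5.71 in ex vivo animals 1 to 4. Zic1 differed by -1.69 and -0.83 in in vivo animals 1 and 4, where muscle differed least. It differed by -3.12 and -1.85 in animals 5 and 6, where muscle differed most, and by -2.94 to -0.83 in the other 5. The in vivo Zic1 mean was -1.95. It was -1.49 with the muscle mean as a covariate and -1.74 without animals 5 and 6. Fibroblast markers differed by -0.37 to -0.06 in vivo and by -0.26 to 0.45 ex vivo.

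**Figure D4:**
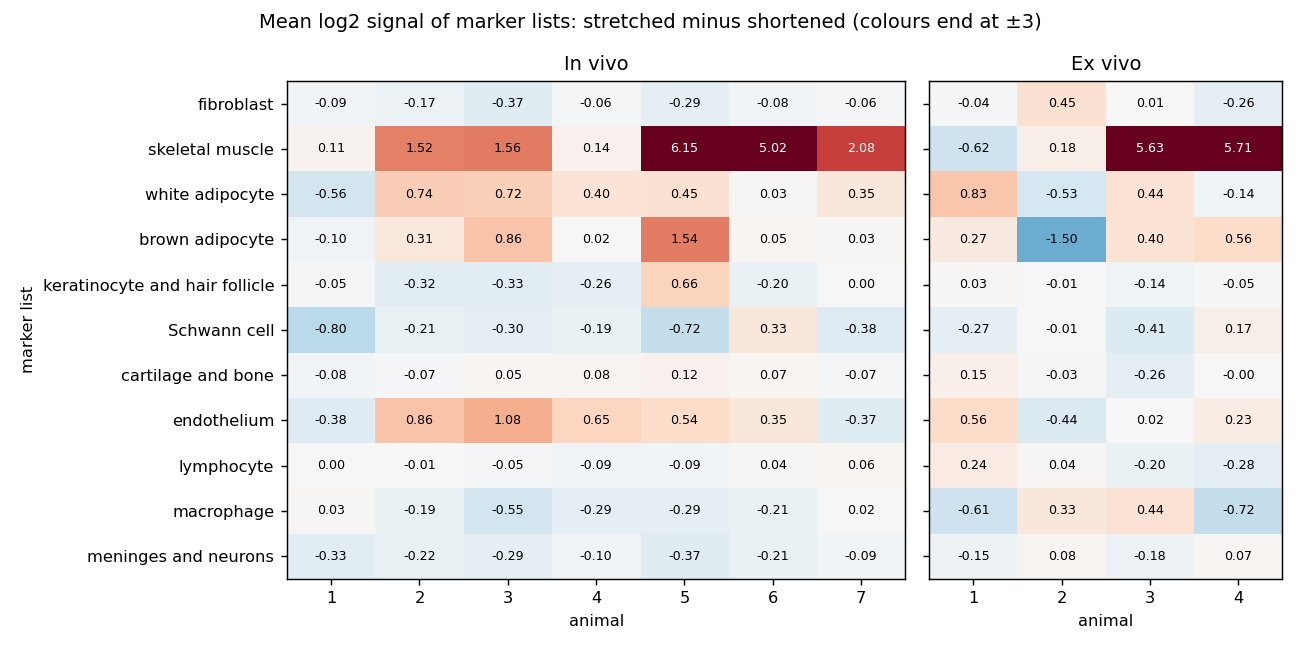
Mean log2 signal of 11 marker lists, stretched minus shortened, is printed in each cell for each animal (columns), in vivo on the left and ex vivo on the right. Red is higher and blue lower in the stretched piece, and colours end at 3 either way. Skeletal muscle is high in ex vivo animals 3 and 4 (5.63 and 5.71) and in vivo animals 5 and 6 (6.15 and 5.02), and brown fat is low in ex vivo animal 2 (-1.50).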

How the data were processed

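Total RNA of mouse subcutaneous tissue was labelled as biotin cRNA and hybridised to 22 arrays. Per the submitters' processing notes, the authors used RMA through the affy package (versions not given in the sources used here), and the deposited values are log2 signals from 1.89 to 14.38. Sample medians differ by setting, so no test spans settings.

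Of 22690 probes, 64 controls were left out and 22626 tested; 20380 carry 1 gene symbol in the platform annotation, 691 several and 1555 none. No samples held identical values. Stretched minus shortened was fitted per setting with limma 3.58.1 in R 4.3.3 (lmFit, eBayes with a mean-variance trend, animal as a block), with Benjamini-Hochberg adjustment over all probes and a threshold of 0.05. Tables were made with Python 3.11.15 and pandas 2.3.3, and the fit was tested on simulated data. Same numbers are 1 animal by the series design. Deviations of paired samples correlated at 0.109 to 0.284 ex vivo and 0.385 to 0.867 in vivo. The stretched pieces of in vivo animal 5 and ex vivo animal 4 correlated more with the shortened piece of another number.

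The 10 genes, the gene lists and the tests were chosen with earlier results of these data known. Named genes are the 10 and the 3 genes most correlated with Zic1 and with Tbx3. From the lists of other HOX genes, HOX cofactors and other patterning factors, the genes with the 3 smallest p values per setting are named. The HOX genes of the split between ex vivo animals were named after their values were seen. So were Aldh1a3, Bmp4, Sfrp2 and Gdf5. Each gene list was described by counts only. Alternatives covered the block, normalization, eBayes settings, a mean signal of at least 6 and the mean of a gene's probes. They also covered muscle as a covariate, in vivo animals of low or high Gapdh difference, and each animal left out. Added after seeing the data were leaving out the pairs that differed most in muscle and using the other probe of a gene.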

Additional observations from a re-analysis of the deposited data

Results flagged for a closer look

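Each of 60 groups of values of the 10 genes was searched for a sample far from the others by Dixon's criterion, which chance meets in about 1 in 20 groups, and 8 were found. Ex vivo, the Zic4 difference of animal 2 (0.72) lay far above those of the other animals. In the shortened piece of ex vivo animal 4, Pax1 had the low value of 4.39. The Hoxa9 signal in the stretched piece of ex vivo animal 1 (6.58) and the Hoxa9 difference of that animal (2.43) were far above the rest. In vivo, Tbx3 was low in the shortened piece of animal 1 (4.53), and Hoxb6 was low in the stretched piece of the same animal (5.55). Tbx18 was high in the stretched piece of in vivo animal 4 (6.72) and low in the shortened piece of animal 6 (6.28), the animals in which its difference went against the other 5.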

How the results depend on the processing

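No probe passed the adjusted threshold by limma under any of 13 ex vivo and 18 in vivo alternatives, each animal left out included (0 each time; smallest adjusted p 0.0948 ex vivo and 0.0822 in vivo). With no replicate block, as unpaired groups, the counts stayed 0 and 0, and unadjusted p under 0.05 held for 2173 ex vivo probes, against 2508 paired, and for 1080 in vivo probes, against 4373 paired. With muscle as a covariate these counts were 1905 ex vivo and 1389 in vivo, with smallest adjusted p values of 0.408 and 0.744 (limma). Unadjusted counts ranged from 958 (without animal 3) to 3484 ex vivo and from 2582 (without animal 3) to 5368 in vivo with 1 animal left out; without in vivo animal 5 the count was 2777. Some ex vivo means of the 10 genes changed sign. With muscle as a covariate, Pax1 was -0.14, Hoxa9 0.59, Hoxb6 0.034 and En1 0.34. Without animals 3 and 4, Pax1 was -0.16, Hoxa9 0.56 and En1 0.39. The other probe gave -0.15 for Tbx3 and 0.021 for Hoxa3. Leaving out 1 animal gave -0.016 to 0.24 for Zic4 and -0.31 to 0.14 for En1. The cause was not tested. Zic1 kept its ex vivo sign in all 13 alternatives (0.56 to 1.68, smallest adjusted p 0.228, limma). Its in vivo mean lay between -2.33 and -1.49 over the 18 alternatives. Leaving out animals could not change that sign, since the gene was chosen on these pairs and all 7 were lower. In vivo, Tbx3 was 0.069, Hoxa9 -0.079 and Hoxa3 0.0098 with the other probe, Hoxa3 -0.15 as the mean of its probes, and Pax1 0.67 in the animals of low Gapdh difference. Signals near 4 or lower, such as those of Zic4, Hoxd1, in vivo En1 and ex vivo Hoxa10, lie in the dim part of the array. Small differences are least certain there.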

Other observations

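Signals that set position in the embryo, such as BMP, WNT and retinoic acid pathway genes, were also measured, 38 of 40 listed. In vivo 14 were higher and 24 lower on average in stretched pieces, and 15 had an unadjusted p under 0.05, 4 higher and 11 lower, beside 19.3% of all probes. Ex vivo 18 were higher and 20 lower, and 6 had an unadjusted p under 0.05, 4 higher and 2 lower, beside 11.1% of all probes. None passed the adjusted threshold by limma in either setting. The genes named next were chosen after their values were seen. Aldh1a3, an enzyme that makes retinoic acid, was lower in 7 of 7 in vivo stretched pieces, with a mean difference of -0.79 (adjusted p = 0.172, limma), and ex vivo its differences were 0.08, 0.66, 0.70 and 0.34 (mean 0.45, adjusted p = 0.366). Bmp4, a bone morphogenetic protein, differed by -0.31 in vivo, lower in 7 of 7, and by 0.48 ex vivo, higher in 4 of 4 (adjusted p = 0.172 and 0.388, limma). Sfrp2, a secreted WNT modulator, was lower in all 7 in vivo and all 4 ex vivo pairs, with means of -0.30 and -0.40 (adjusted p = 0.172 and 0.388, limma). Gdf5, a growth factor of joints, was higher in all 7 in vivo and all 4 ex vivo pairs, by 0.26 and 0.32 (adjusted p = 0.172 and 0.385, limma). Whether the settings differed in these genes was not tested.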
